A study of Mus musculus with 12 samples.

Results

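Aminoacyl-tRNA synthetases are the enzymes that join each amino acid to its transfer RNA (tRNA). The 36 synthetase genes described here were taken by gene symbol, 20 that serve the cytosol and 16 with a separate gene for the mitochondrion, out of 50686 genes in the table. All 36 passed the filter on low counts, as did 14248 genes in all. The livers came from FVB/N mice aged 6 to 8 weeks given lipid nanoparticles with small interfering RNA (siRNA) by tail vein. The dose was 0.5 mg/kg, with 1 injection per interval of 5 days. The siRNA was directed at Eif3m, which encodes a subunit of the translation initiation factor eIF3, or was the luciferase control, and the livers were ground and sequenced after 9 or 13 days. Each treatment at each day was a group of 3 libraries, which makes 4 groups and 12 libraries. The labels do not say that each library came from a separate animal, so the p-values measure the spread between these libraries.

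Each synthetase charges the tRNAs of its own amino acid, and the charged tRNAs are carried to the ribosome by elongation factor 1A. In the cytosol several synthetases sit together in the multisynthetase complex, while others work alone or in dimers. Mitochondria make proteins with tRNAs of their own, and most of their synthetases come from separate nuclear genes whose names end in 2. Kars and Gars encode both the cytosolic and the mitochondrial enzyme and are counted here as cytosolic, so the split by compartment is not complete. Many cytosolic synthetase genes are known targets of ATF4, the transcription factor of the integrated stress response, which binds an element of the form TGATGNAA.

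Day 9 libraries held 38783564 to 54538581 counts in all and day 13 libraries 7650269 to 9630027, so depth and day cannot be told apart. The library titles also carry a different code at each day, and what the code stands for is not given. Any other difference between these sets of libraries, such as one in the number of injections, cannot be told apart from day either. Values are counts scaled to the size of each library (CPM), and they compare 1 gene between libraries. A gene is called here where edgeR's quasi-likelihood test gave an adjusted p under 0.05. Eif3m itself stood at 44.8 CPM ± 0.684 in the day 9 controls and 4.79 ± 0.0859 with its siRNA, and at 36.4 ± 4.56 and 2.37 ± 0.167 at day 13 (SD, n = 3). That is 10.7% of the control mean at day 9 and 6.53% at day 13. Among the day 13 controls, replicate 3 stood apart on the third principal component (9.44% of the variance), at -52.0 against 18.0 and 15.3. The day 13 siRNA replicates 1, 2 and 3 were spread along it, at 37.6, -36.9 and 4.68, so it set no 1 of them apart. The shares of all tested genes called were 5.94% higher and 6.84% lower at day 9, and 12.8% and 10.9% at day 13. A single call in a list as short as those that follow is not read as a result. Among 8 hepatocyte markers, edgeR's test called none higher and 1 lower at day 9 and 2 higher and 2 lower at day 13, with medians of 0.19 and 0.05. At day 9, 1 was higher at an unadjusted p under 0.05, and DESeq2 called 1 higher and limma-voom 0. Their sum is mostly albumin (89669 of 114341 CPM on average in the day 9 controls) and ranged from 111897 to 118906 CPM in those controls against 90868 to 96739 with siRNA, and from 172004 to 194656 against 104418 to 161973 at day 13. Kupffer cell markers (6 genes, 3 called lower at day 9 and 5 at day 13) summed to 248 to 302 CPM in the day 9 controls and 159 to 194 with siRNA, and to 214 to 281 and 95 to 159 at day 13. Both sums were lower in every siRNA library than in every control on each day. Monocyte and macrophage markers (7 genes, 2 called higher at day 9 and 2 lower at day 13) summed to 59.2 to 74.8 and 127 to 147 CPM, then to 130.8 to 166 and 73.4 to 92.6. Stellate cell markers (6 genes, 1 called higher at day 9 and 2 lower at day 13) summed to 204 to 275 and 278 to 316 CPM, then to 348 to 497 and 284 to 307. Endothelial markers (6 genes, 1 called higher at day 9 and 3 lower at day 13) summed to 204 to 230.1 and 226 to 263 CPM, then to 227 to 286 and 192 to 214. The monocyte and stellate sums of the siRNA libraries were wholly above the controls at day 9 and wholly below them at day 13, and the endothelial sums overlapped at day 9 and were wholly below at day 13. Interferon-stimulated genes (10 genes, 3 called higher and 3 lower at day 9 and 6 lower at day 13) summed to 112 to 136 and 113 to 144 CPM, then to 118 to 124 and 77.8 to 90.6. Of 5 cholangiocyte markers 1 was called, higher at day 13, and their sums were 20.3 to 25.7 and 26.3 to 28.9 CPM, then 20.3 to 26.1 and 26.3 to 34.6. Markers of T, NK and B cells (6 genes, with sums of 3.99 to 7.54 CPM over all groups) gave no call by edgeR's test, DESeq2 or limma-voom, and 1 was lower at an unadjusted p under 0.05, at day 9. No marker of these lists was at 0 throughout a group. In whole liver, fewer cells of a type and less RNA per cell cannot be told apart, and the part of these shifts in the synthetase values was not tested.

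Short stretches around the ATF4-type element are shown first, because they are the feature of the promoters that the members were searched for. RefSeq promoter windows of 300 bases (250 before the gene start to 50 after it, build GRCm38.p6) were at hand for 27 of the 36 genes. TGATGNAA, searched on both strands, was in the windows of 5 of 13 cytosolic genes (38.5%) and in none of 14 mitochondrial genes, against 1219 of 27025 genes in the table (4.51%). TGATGCAA, a narrower form that every TGATGNAA search also finds, was in 4 of 13 cytosolic windows (30.8%) and in 279 of 27025 (1.03%). The element is in capitals, each line reads 5′ to 3′ on the gene's own strand (where the match is on the other strand the capitals are its reverse complement).
Aars, chr8:111033710-111033757, plus strand: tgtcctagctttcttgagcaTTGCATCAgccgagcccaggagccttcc
Aars, chr8:111033840-111033869, plus strand: agcgggtcactTTTCATCAgagcgctctga
Gars, chr6:55037951-55037998, plus strand: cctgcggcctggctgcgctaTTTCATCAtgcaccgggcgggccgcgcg
Iars, chr13:49682126-49682155, plus strand: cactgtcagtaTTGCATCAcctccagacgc
Tars, chr15:11399655-11399684, minus strand: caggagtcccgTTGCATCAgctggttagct
Yars, chr4:129189895-129189924, plus strand: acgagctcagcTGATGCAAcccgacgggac
The first Aars match begins 112 bases before the gene start, and the Gars match begins 30 bases before it. Matches in Iars, Tars and Yars lie within 15 bases of the start. These 5 genes did not share a direction. Aars transcripts rose at day 13, Tars transcripts fell at both days, and Gars, Iars and Yars were called at neither day. A match is a description of these letters only.

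At day 9 few of the cytosolic synthetases were called. Of 20 genes, 2 were called higher (Sars and Wars) and 2 lower (Tars and Cars). The other 16 passed in neither direction. Over all tested genes 5.94% were called higher and 6.84% lower, so both counts are near those shares. With any 1 library left out, 0 to 2 were called higher and 1 to 2 lower. The median log2 fold change of the 20 was 0.13, against 0.01 over all genes, and 14 of the 20 had a positive value. Without day 9 siRNA replicate 2 that median was 0.07. All of the log2 fold changes at day 9 lay between -0.57 and 0.52.

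Sars, which charges serine tRNA, was at 51.6, 52.0 and 47.3 CPM in the day 9 controls and 65.3, 75.9 and 75.8 CPM with Eif3m siRNA. Each siRNA library was above each control, and Sars rose by 0.52 on the log2 scale (SE 0.122, adjusted p = 0.0134 by edgeR's test). At day 13 the controls held 62.7, 69.0 and 51.3 CPM and the siRNA libraries 95.4, 81.0 and 96.9. The groups were again apart, with a log2 fold change of 0.58 (SE 0.126, edgeR adjusted p = 0.00448), which is 1.49-fold. Wars, the tryptophan enzyme, read 18.4, 14.3 and 16.3 CPM in the day 9 controls and 21.8, 24.1 and 22 with siRNA. The lowest siRNA library stood above the highest control, and Wars rose by 0.47 on the log2 scale (SE 0.113, edgeR adjusted p = 0.0151). At day 13 Wars read 22.1, 19.7 and 22.9 CPM in the controls and 32.2, 29.9 and 32.5 with siRNA, a log2 fold change of 0.55 (SE 0.122, edgeR adjusted p = 0.00515). Sars and Wars were the 2 cytosolic genes called higher at both days. Their day 9 calls were lost when day 9 control replicate 3 or siRNA replicate 2 was left out, and that of Wars also without control replicate 2, with edgeR adjusted p up to 0.0632 for Sars and 0.0699 for Wars.

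Tars, the threonine enzyme, moved the other way from most cytosolic synthetases. Its day 9 controls held 92.6, 82.6 and 93.8 CPM and the siRNA libraries 54.7, 67.6 and 58.7. Its day 13 controls held 111, 137 and 113 CPM and the siRNA libraries 78.9, 74.6 and 88.6. At each day every siRNA library lay below every control. The log2 fold change was -0.57 at day 9 (SE 0.12, edgeR adjusted p = 0.00726) and -0.57 at day 13 (SE 0.122, edgeR adjusted p = 0.00399), or 1.49-fold lower at both. Tars was the sole synthetase of either compartment called lower at both days, and it stayed called under all 22 alternatives tried at day 9 and all 21 at day 13. The gene lies at chr15:11382301-11399665 on the minus strand of GRCm38.

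Cars, the cysteine enzyme, read 32.3, 22.9 and 26.4 CPM in the day 9 controls and 19.3, 16.9 and 18.8 with siRNA. The groups did not overlap, and Cars fell by 0.57 on the log2 scale (SE 0.155, edgeR adjusted p = 0.0281). At day 13 the controls read 26.2, 21.2 and 19.5 CPM and the siRNA libraries 15.5, 14.7 and 20.5. Here the highest siRNA library passed the lowest control, and the log2 fold change of -0.40 missed the threshold (SE 0.172, edgeR adjusted p = 0.109). The day 9 call of Cars was lost when control replicate 1 or 3, or any one of the siRNA replicates 1, 2 and 3, was left out (edgeR adjusted p up to 0.130). Mars, the methionine enzyme, was called at neither day, with log2 fold changes of -0.31 and -0.35 (edgeR adjusted p = 0.148 and 0.0892). Mars shares 68 exon bases on the opposite strand with Ddit3, and the strand setting of the counts is not given in the sources used here.

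At day 13 more of the cytosolic synthetases were higher. Of 20 genes, 9 were called higher (Aars, Dars, Eprs, Farsb, Kars, Rars, Sars, Vars and Wars) and 1 lower (Tars), while 12.8% of all tested genes were called higher and 10.9% lower. The remaining 10 were not called. The median log2 fold change of the 20 was 0.34, against 0.00 over all genes, with 15 positive values. Summed over the 20 genes, transcripts came to between 1191 and 1359 CPM in the day 13 controls and between 1530 and 1650 with siRNA, so the sums did not overlap. At day 9 the sums were 1061 to 1125 CPM in the controls and 1126 to 1281 with siRNA, where the lowest siRNA sum barely passed the highest control. Aars and Eprs, which had the most counts, made up most of the rise in the mean sum, from 1101 to 1189 CPM at day 9. Their means rose from 179 to 221 and from 141 to 181 CPM on that day. At day 13 they rose from 244 to 364 and from 133 to 218 CPM, while the mean sum rose from 1257 to 1599. The sums are thus no measure of all 20 genes alike. The number called higher at day 13 was between 7 and 11 when any 1 library was left out.

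**Figure D1:**
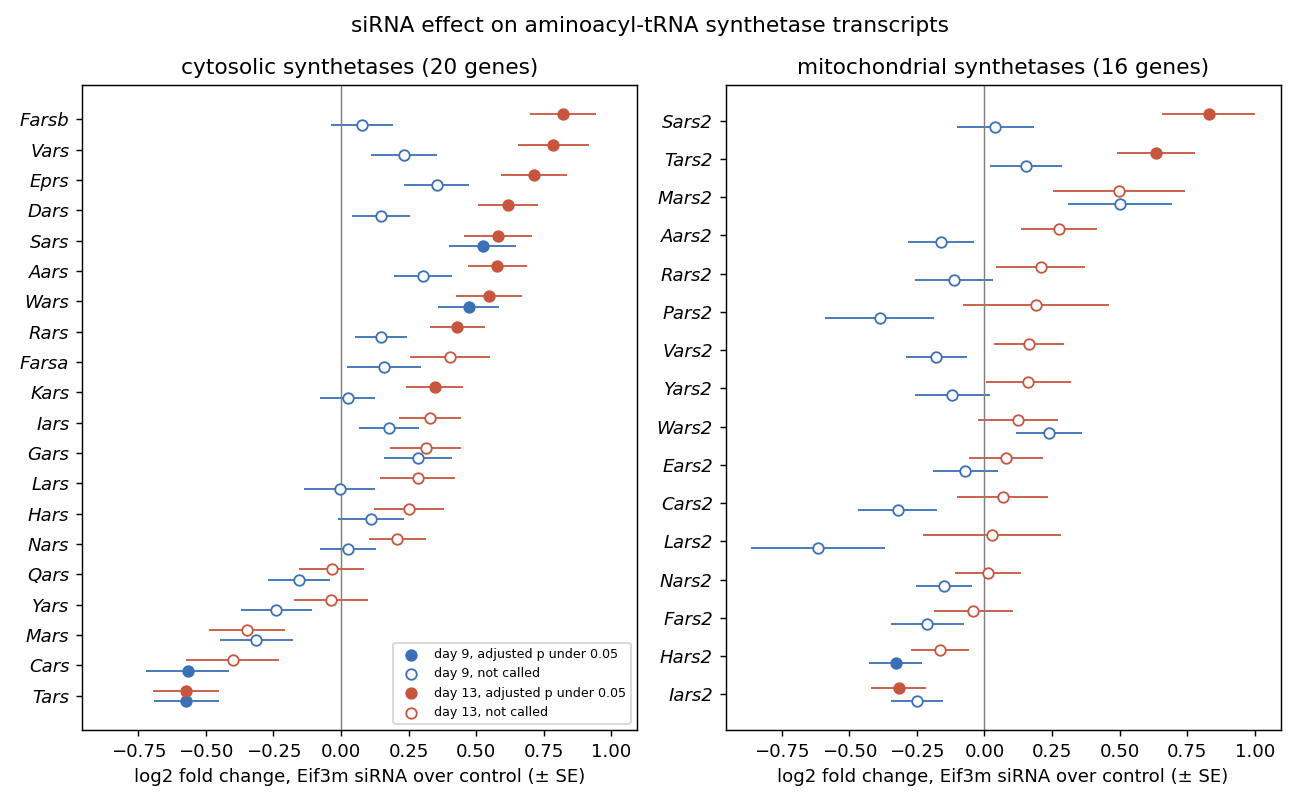
Log2 fold change of Eif3m siRNA over control with its SE (x axis) for the 20 cytosolic (left) and 16 mitochondrial (right) synthetases, at day 9 (blue) and day 13 (red), filled where edgeR's adjusted p was under 0.05. Filled day 13 points lie on the positive side for 9 cytosolic and 2 mitochondrial genes and on the negative side for Tars and Iars2.

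Farsb, the beta chain of the phenylalanine enzyme, had the largest cytosolic log2 fold change at day 13. Its controls held 25.8, 34.9 and 27.2 CPM and its siRNA libraries 48.8, 49.4 and 56.8. The groups were well apart, with a log2 fold change of 0.82 (SE 0.122, edgeR adjusted p = 0.000335), or 1.77-fold. At day 9 Farsb read 32.4, 32.6 and 34.3 CPM in the controls and 34.9, 35.6 and 34.3 with siRNA, a log2 fold change of 0.08 (SE 0.115, edgeR adjusted p = 0.71). The groups met at 34.3 CPM on that day. Farsb shares 248 exon bases on the opposite strand with Sgpp2. Its partner Farsa, the alpha chain, was called at neither day, at 0.16 and 0.40 on the log2 scale (edgeR adjusted p = 0.493 and 0.0642).

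Vars, the valine enzyme, was at 22.7, 24.5 and 20.5 CPM in the day 13 controls and at 44.6, 36.1 and 36.1 with siRNA. The lowest siRNA library was well above the highest control, and the log2 fold change was 0.79 (SE 0.131, edgeR adjusted p = 0.00076). At day 9 Vars read 26.6, 23.4 and 23.5 CPM against 27.7, 32.3 and 26.4, groups that overlapped, with a log2 fold change of 0.23 (edgeR adjusted p = 0.235). Aars, the alanine enzyme, was at 245, 249 and 237 CPM in the day 13 controls and 394, 349 and 348 with siRNA. The siRNA group was wholly above the controls, by 0.58 on the log2 scale (SE 0.109, edgeR adjusted p = 0.00179). At day 9 the Aars groups were also apart, at 183, 166 and 189 CPM in the controls and 201, 252 and 211 with siRNA, but the log2 fold change of 0.30 was not called (edgeR adjusted p = 0.0829). Aars shares 1326 exon bases on the same strand with Exosc6, so part of its counts is uncertain.

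Of the 8 enzymes of the multisynthetase complex, 4 were called higher at day 13 (Dars, Eprs, Kars and Rars) and none lower, with a median log2 fold change of 0.34. Over all tested genes the shares were 12.8% and 10.9%. Without day 13 siRNA replicate 3 the complex had 2 called higher and 1 lower, and without day 13 control replicate 3 it had 1 called lower. None of the 8 was called by edgeR's test at day 9, when the median was 0.09. At an unadjusted p under 0.05, 1 was higher and 1 lower, and DESeq2 called 1 higher (Eprs) and limma-voom 0. Among the 12 cytosolic enzymes outside the complex, 5 were called higher and 1 lower at day 13 (median 0.36), and 2 were higher and 2 lower at day 9 (median 0.13), when 5.94% and 6.84% of all genes were called.

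Eprs, the enzyme that charges both glutamate and proline tRNA, read 114, 143 and 142 CPM in the day 13 controls and 205, 236 and 212 with siRNA. All siRNA libraries were higher, and Eprs rose by 0.71 on the log2 scale (SE 0.123, edgeR adjusted p = 0.000944). At day 9 it read 143, 144 and 137 CPM against 163, 207 and 173, again without overlap, with a log2 fold change of 0.36 (edgeR adjusted p = 0.069). Dars, for aspartate, read 41.4, 42.7 and 51.8 CPM in the day 13 controls and 66.0, 69.8 and 73.1 with siRNA. These groups lay apart, with a log2 fold change of 0.62 (SE 0.111, edgeR adjusted p = 0.00125), against 0.15 at day 9 (edgeR adjusted p = 0.402). Rars, for arginine, rose by 0.43 (SE 0.101, edgeR adjusted p = 0.0073) and Kars, for lysine, by 0.35 (SE 0.104, edgeR adjusted p = 0.0279) on the log2 scale at day 13. The Kars call was lost when day 9 siRNA replicate 1, day 13 control replicate 1 or 3, or day 13 siRNA replicate 3 was left out (edgeR adjusted p up to 0.138). The Rars call was lost without day 13 siRNA replicate 3 alone among the libraries (edgeR adjusted p up to 0.0584 over the alternatives).

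**Figure D2:**
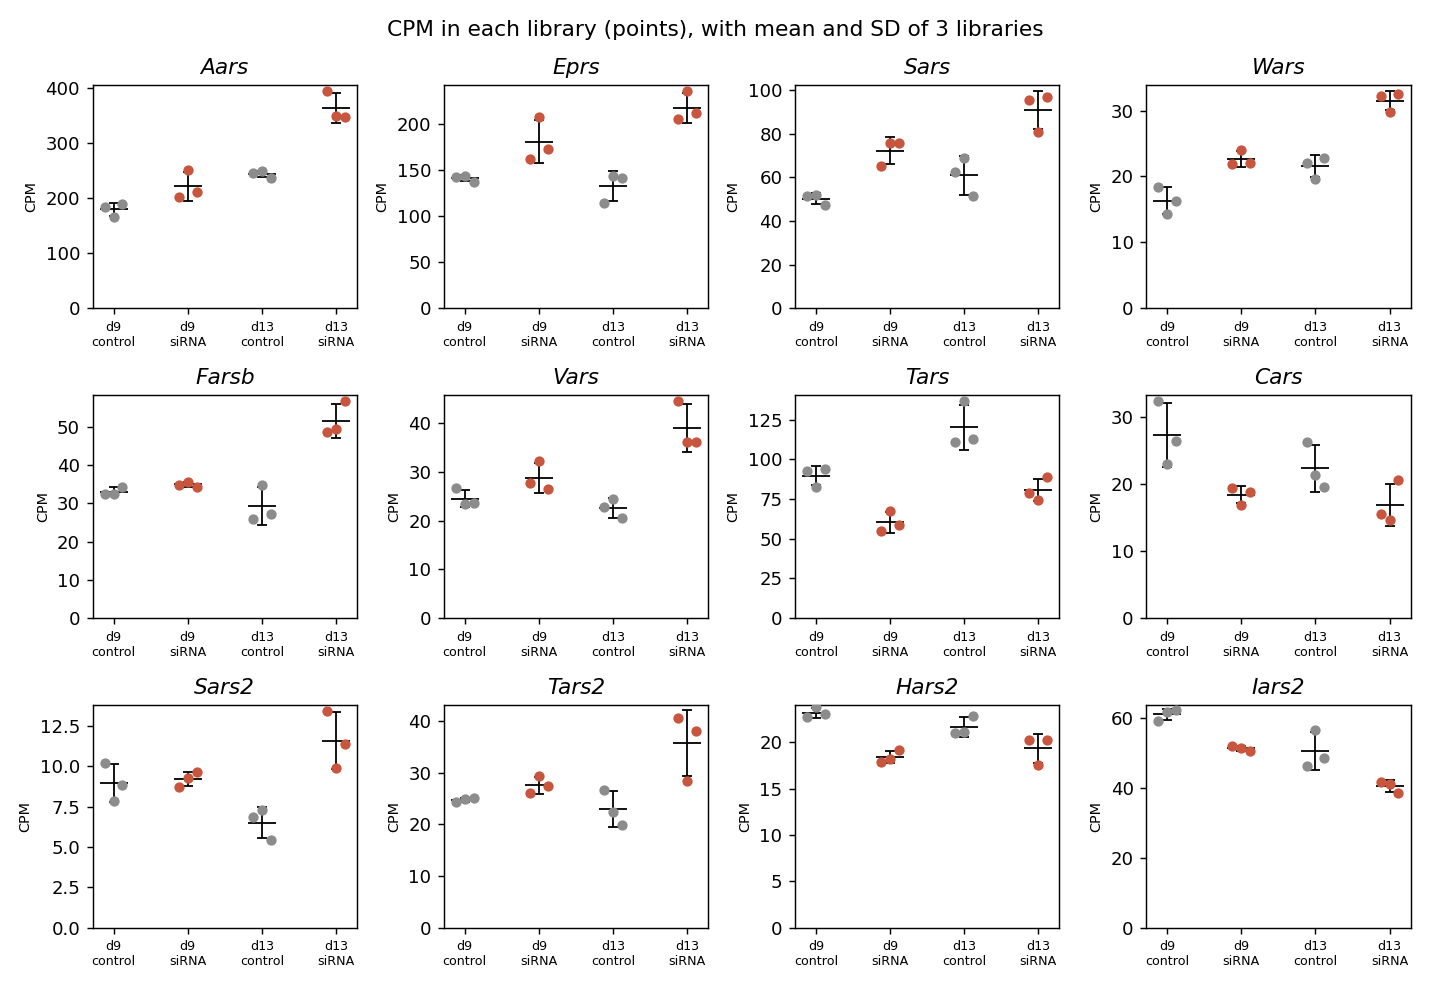
CPM of 12 synthetases (y axes from 0) in each of the 12 libraries, with the mean and SD of 3 libraries in each group, controls in grey and Eif3m siRNA in red. Day 13 siRNA points of Aars, Eprs, Sars, Wars, Farsb and Vars all stand above that day's controls, and those of Tars and Iars2 stand below.

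At day 9 edgeR's test called none of the 16 mitochondrial genes higher and 1, Hars2, lower. Over all tested genes 5.94% were called higher and 6.84% lower on that day, so 1 of 16 lower is near that share. Higher at an unadjusted p under 0.05 was 1 of the 16, Mars2, which limma-voom called higher and DESeq2 did not. The median log2 fold change was -0.16, and 12 of the 16 values were negative, and it was -0.08 with the day 9 counts thinned to day 13 depth. At day 13, 2 were called higher (Sars2 and Tars2) and 1 lower (Iars2). Those 2 and 1 of 16 are no larger a share than the 12.8% and 10.9% of all tested genes called higher and lower on that day. The median was 0.14, with 13 positive values. It was 0.08 without day 13 control replicate 1 and 0.08 without control replicate 3. Without both control replicate 3 and siRNA replicate 2 of that day it was 0.07.

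Sars2, the mitochondrial serine enzyme, had the largest rise among all 36 genes at day 13. It read 6.86, 7.27 and 5.42 CPM in the controls and 13.4, 9.92 and 11.4 with siRNA, groups that were apart. The log2 fold change was 0.83 (SE 0.173, edgeR adjusted p = 0.00341), or 1.78-fold, from counts between 50 and 557 per library over both days. At day 9 the groups overlapped, at 10.2, 7.85 and 8.83 CPM against 8.74, 9.28 and 9.62, with a log2 fold change of 0.04 (edgeR adjusted p = 0.894). Tars2, for threonine, read 26.6, 22.4 and 19.8 CPM in the day 13 controls and 40.6, 28.5 and 38.0 with siRNA. The siRNA libraries were all higher, replicate 2 least, and the log2 fold change was 0.64 (SE 0.145, edgeR adjusted p = 0.00617). Thus Tars2 and its cytosolic counterpart Tars were called in opposite directions at day 13. At day 9 Tars2 was at 24.3, 25.0 and 25.1 CPM against 26.0, 29.3 and 27.4, a log2 fold change of 0.15 that was not called (edgeR adjusted p = 0.5).

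Hars2, for histidine, read 22.8, 23.8 and 23.0 CPM in the day 9 controls and 17.9, 18.3 and 19.2 with siRNA. The groups did not overlap, and Hars2 fell by 0.33 on the log2 scale (SE 0.0969, edgeR adjusted p = 0.0398). The day 13 values were 21.0, 21.1 and 22.9 CPM against 20.3, 17.5 and 20.3, a log2 fold change of -0.17 (edgeR adjusted p = 0.29). The day 9 call was lost without any one of the 6 day 9 libraries and without day 13 siRNA replicate 3 (edgeR adjusted p up to 0.226 over the alternatives). Hars2 and Hars overlap by 195 exon bases on opposite strands.

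Iars2, for isoleucine, read 46.4, 56.7 and 48.7 CPM in the day 13 controls and 41.8, 41.3 and 38.8 with siRNA. Every siRNA library was below every control, and Iars2 fell by 0.32 on the log2 scale (SE 0.101, edgeR adjusted p = 0.0356). The day 9 groups were also apart, at 59.4, 61.8 and 62.4 CPM against 52.0, 51.4 and 50.8, with a log2 fold change of -0.25 that was not called (edgeR adjusted p = 0.104). Its day 13 call was lost without control replicate 2 or siRNA replicate 1, 2 or 3 of that day (edgeR adjusted p up to 0.149). Iars2 shares 2034 exon bases on the opposite strand with Rab3gap2.

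Lars2, for leucine, had the most counts of the mitochondrial synthetases, by far at day 9, and a wide spread. Its control mean was 199 CPM at day 9 and 75.6 at day 13, against 61.2 and 50.6 for Iars2. In the day 9 controls Lars2 read 264, 163 and 169 CPM, and 120, 153 and 115 with siRNA. The groups were apart, yet the log2 fold change of -0.62 was not called (SE 0.249, edgeR adjusted p = 0.13). On day 13 it read 58.8, 86.9 and 81.0 CPM against 68.4, 107 and 55.6, which overlapped, with a log2 fold change of 0.03 (edgeR adjusted p = 0.956). The day 9 sum over the 16 mitochondrial genes, 414 to 520 CPM in the controls and 345 to 387 with siRNA, includes this gene. Without Lars2 the median log2 fold change of the mitochondrial genes was -0.15 at day 9 and 0.16 at day 13.

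The other mitochondrial enzymes were not called at either day. Counterparts of the cytosolic genes described above had log2 fold changes at day 9 and day 13 of -0.16 and 0.27 for Aars2, -0.32 and 0.07 for Cars2, and -0.07 and 0.08 for Ears2. They were -0.21 and -0.04 for Fars2, -0.18 and 0.17 for Vars2, and 0.24 and 0.12 for Wars2. Pars2, for proline, had -0.39 and 0.19 and Nars2, for asparagine, -0.15 and 0.01. The edgeR adjusted p of these 8 genes ran from 0.175 (Cars2, day 9) to 0.993 (Nars2, day 13). Pars2 and Mars2 were the thinnest, with as few as 14 and 20 counts in a library, so smaller changes were not detectable in them at this depth.

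The effect at day 13 was compared with that at day 9 in the same edgeR model, where day cannot be told apart from depth or set of libraries. Farsb was the single synthetase called for this difference, at 0.74 on the log2 scale (SE 0.167, adjusted p = 0.037), while 0.898% of all tested genes were called for a larger and 1.66% for a smaller value at day 13. No mitochondrial gene was called for it, and the nearest was Sars2 at 0.79 (SE 0.224, edgeR adjusted p = 0.0757). At an unadjusted p under 0.05 edgeR's test gave 3 mitochondrial genes for this difference, while DESeq2 called 1 and limma-voom 0. The Farsb call was lost without any one of the 6 day 9 libraries, without day 13 control replicate 1 or 3 and without day 13 siRNA replicate 3 (edgeR adjusted p up to 0.110 over the alternatives). For Tars the difference between the days was -0.00 (SE 0.171). Across the 20 cytosolic genes the log2 fold changes of the days had the same sign in 19, and Pearson's r was 0.88 (Spearman 0.77). Across the 16 mitochondrial genes the sign was shared by 7, with r = 0.58 (Spearman 0.59). These are correlations across genes, which share the libraries of each day and are not independent replicates.

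Cytosolic and mitochondrial partners were also set against each other within each library, as the ratio of their counts, which does not depend on how libraries are scaled. There were 16 such pairs, of which 2 used Eprs, and no test was made of them. At day 9 the ratio was higher in every siRNA library than in every control for 9 pairs, lower for 2, and overlapping for 5. At day 13 the numbers were 7, 3 and 6. Single genes without overlap were common, with 22.5% of all tested genes wholly higher and 21% wholly lower at day 9, and 17.2% and 16% at day 13. Those shares are for the CPM of single genes. No such share was computed for ratios of other gene pairs, so the counts of pairs have no like baseline here. Because a ratio of counts also carries the lengths of the genes, only its change is read.

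The Tars to Tars2 ratio had the widest shift at day 13. It was 3.81, 3.31 and 3.74 in the day 9 controls and 2.10, 2.31 and 2.14 with siRNA. At day 13 it was 4.17, 6.10 and 5.69 in the controls and 1.94, 2.62 and 2.33 with siRNA. Both days were without overlap, with mean log2 changes of -0.73 and -1.20. Ratios of Aars to Aars2, Eprs to Ears2, Hars to Hars2, Iars to Iars2 and Vars to Vars2 were higher in all siRNA libraries at both days. Their log2 changes were 0.46 and 0.30 for Aars, 0.42 and 0.63 for Eprs, 0.44 and 0.41 for Hars, 0.43 and 0.63 for Iars, and 0.41 and 0.62 for Vars. Iars is itself uncertain, since a processed pseudogene, Gm4849, matches its transcripts over 1656 bases at 96.0% identity.

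**Figure D3:**
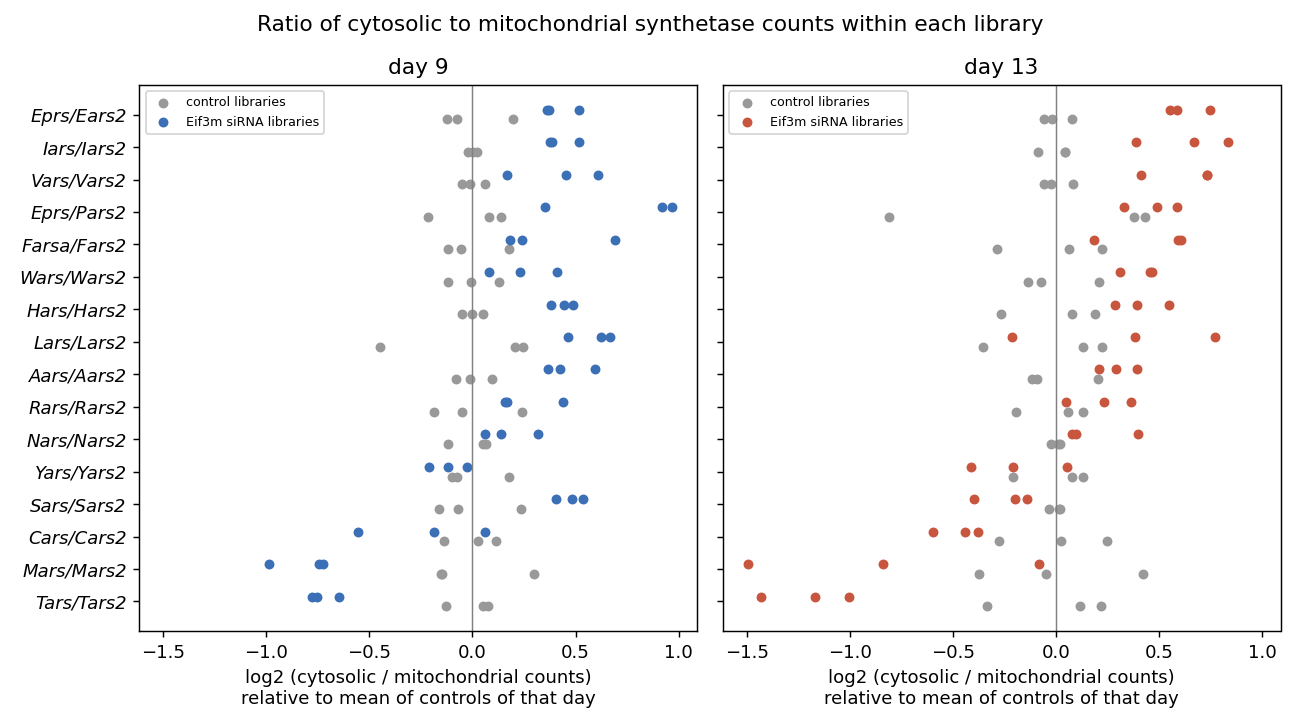
Log2 ratio of cytosolic to mitochondrial synthetase counts within each library, relative to the mean of that day's controls (x axis), for 16 pairs at day 9 (left) and day 13 (right), 1 point per library, controls in grey and Eif3m siRNA libraries in colour. Tars/Tars2 points of the siRNA libraries lie left of the controls on both days, and those of Sars/Sars2 lie right of them at day 9 and left at day 13.

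The serine pair was named because, among the 16 pairs, only its ratio groups lay apart in opposite directions at the 2 days. Sars2 had only 51, 51 and 50 counts in the day 13 controls, so the ratio rests on few counts there. Sars to Sars2 was 5.04, 6.62 and 5.36 in the day 9 controls and 7.47, 8.18 and 7.88 with siRNA. At day 13 it was 9.14, 9.49 and 9.48 in the controls and 7.10, 8.17 and 8.51 with siRNA. All siRNA libraries were higher at day 9, by a mean of 0.48 on the log2 scale, and all were lower at day 13, with a change of -0.25. Both genes of the pair were called higher at day 13, as given above, and the difference of the ratio between the days was not tested.

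Levels between genes were compared per length, as TPM computed from the counts and the merged exon length of each gene. In the day 9 controls Nars, the asparagine enzyme, had 44.5 TPM ± 2.55, Aars 42.7 ± 2.79 and Lars2 39.6 ± 11.4 (SD, n = 3). These 3 highest levels did not differ beyond their spread. The median level was 21.0 TPM over the cytosolic genes (6.12 to 44.5) and 7.49 over the mitochondrial genes (0.590 to 39.6). Farsa had the lowest cytosolic level, at 6.12 TPM, and Mars2 the lowest of all, at 0.590. With the longest transcript as the length, Lars2 came first at 94.4 TPM and the medians were 27.4 and 8.88, so the order at the top rests on the length used. Nars was called at neither day, at 88.8, 82.3 and 92.0 CPM in the day 9 controls and 88.5, 94.7 and 84.4 with siRNA. The day 13 values were 104, 121 and 114 CPM against 134, 118 and 140, which overlapped, with a log2 fold change of 0.21 (edgeR adjusted p = 0.173).

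Synthetases fall into class I and class II by the fold of their catalytic domain, and both compartments hold both. Of 19 class I genes, 1 was called higher and 1 lower at day 9, and 4 higher and 1 lower at day 13. Of 17 class II genes, 1 was higher and 2 lower at day 9, and 7 higher and 1 lower at day 13. The medians at day 13 were 0.16 and 0.31. Over all tested genes, 5.94% were called higher and 6.84% lower at day 9 and 12.8% and 10.9% at day 13, and the class I and class II counts at day 9 are near those shares. Among 12 synthetases listed from background knowledge as ATF4 targets, 2 were called higher and 2 lower at day 9, and 4 higher and 1 lower at day 13, with medians of 0.10 and 0.30. The day 9 counts of these 3 lists, and of the enzymes outside the complex, rest on Sars, Wars, Cars, Hars2 and Tars, and fall with the libraries named above for the first 4 of these genes. The 1 class I gene lower at day 13 is Iars2, and there were 2 without day 13 control replicate 3. The ATF4 targets lower at day 13 were 2 without day 13 control replicate 3 or without siRNA replicate 3.

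Transcripts for proteins that work beside the cytosolic synthetases were listed next, in 8 genes for the scaffold proteins of the multisynthetase complex, the tRNA export receptor and the subunits of elongation factor 1. At day 9, 5 of 8 were called higher and none lower (median 0.47), against 5.94% and 6.84% of all genes. Leaving out any one of the day 9 controls, or siRNA replicate 1 or 2 of that day, brought the count to 3. The calls lost were those of Eef1g and of Xpot, the export receptor, named after its values were seen (0.46 at day 9, edgeR adjusted p = 0.0483). At day 13, 7 of 8 were called higher and none lower (median 0.96), against 12.8% and 10.9% of all genes. Eef1b2, the subunit that reloads elongation factor 1A with GTP, was at 119, 121 and 127 CPM in the day 9 controls and 193, 211 and 211 with siRNA. At day 13 it was at 148, 182 and 115 CPM against 529, 380 and 525. All siRNA libraries stood above the controls, by 0.75 (SE 0.157, edgeR adjusted p = 0.00742) and 1.69 (SE 0.162, edgeR adjusted p = 1.23e-05) on the log2 scale. Eef1a1, which carries charged tRNA to the ribosome, rose by 0.58 and 1.14 (edgeR adjusted p = 0.00742 and 2.97e-05), and Eef1g, another subunit, by 0.48 and 1.14 (edgeR adjusted p = 0.02 and 2.97e-05).

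Aimp1, the scaffold to which several of the complex's enzymes bind, was named after its values were seen. It read 22.2, 20.9 and 20.4 CPM in the day 9 controls and 33.4, 36.1 and 34.3 with siRNA, and 24.4, 25.1 and 21.0 against 56.5, 43.7 and 62.9 at day 13. The groups were apart at both days, with log2 fold changes of 0.71 (SE 0.127, edgeR adjusted p = 0.00293) and 1.21 (SE 0.135, edgeR adjusted p = 3.95e-05). The other scaffold genes, also named after their values were seen, were Aimp2, at 0.27 and 0.48 (edgeR adjusted p = 0.246 and 0.04), and Eef1e1, at 0.39 on both days (edgeR adjusted p = 0.0843 and 0.0915). The day 13 call of Aimp2 was lost in 13 of 21 alternatives.

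Of 14 genes that act with mitochondrial charged tRNAs, edgeR's test called none higher and 1 lower at day 9, and 2 higher and 1 lower at day 13 (medians -0.06 and 0.16). These counts are near the shares over all genes, 6.84% lower at day 9 and 12.8% higher and 10.9% lower at day 13. The day 9 count of higher genes was also 0 at an unadjusted p under 0.05, with DESeq2 and with limma-voom. Mtif2, a mitochondrial initiation factor, rose by 0.63 on the log2 scale at day 13 (SE 0.105, edgeR adjusted p = 0.000797), and Mtrf1, of the release factor family, by 0.71 (SE 0.165, edgeR adjusted p = 0.00658). Gatb, a subunit of the amidotransferase that makes mitochondrial glutaminyl-tRNA, had log2 fold changes of -0.34 and -0.51 at day 9 and day 13 (edgeR adjusted p = 0.0368 and 0.00364). The day 9 call of Gatb was lost without any one of the 6 day 9 libraries, and without day 13 control replicate 3 the genes called lower at day 13 were 2.

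Of 14 genes of tRNA processing and ligation, edgeR's test called none higher and 1 lower (Hsd17b10, a subunit of mitochondrial RNase P) at day 9, and 6 higher and 1 lower at day 13 (medians 0.12 and 0.27), against 12.8% and 10.9% of all genes. The 6 became 3 without day 13 control replicate 3 or siRNA replicate 1, and 1 without siRNA replicate 3. The day 9 call of Hsd17b10 was lost without any one of the 6 day 9 libraries or without day 13 siRNA replicate 3, and 2 were called lower at day 9 without day 13 control replicate 1 or 3, or without siRNA replicate 2 of that day. None was higher at day 9 at an unadjusted p under 0.05, with DESeq2 or with limma-voom either. Rpp40, a subunit of RNase P, which trims the leading end of tRNA precursors, read 2.83, 1.99 and 3.03 CPM in the day 13 controls and 7.13, 5.93 and 8.76 with siRNA. Its groups were apart, with a log2 fold change of 1.45 (SE 0.223, edgeR adjusted p = 0.000415). Rtcb, the tRNA ligase, rose by 0.39 (edgeR adjusted p = 0.0113, and not called without day 13 siRNA replicate 3) at day 13, while Clp1, an RNA kinase of the splicing endonuclease complex, had a log2 fold change of -0.83 (edgeR adjusted p = 0.00124). Of 7 genes for editing and relatives of the synthetases, none was called at day 9 by edgeR's test. None was at an unadjusted p under 0.05, with DESeq2 or with limma-voom either. At day 13, when 12.8% of all genes were called higher, 2 of the 7 were (medians -0.07 at day 9 and 0.11 at day 13). These were Aarsd1, which clears mischarged tRNA, at 0.61 (edgeR adjusted p = 0.00748), and Tarsl2, a second cytosolic threonine enzyme, at 0.52 (edgeR adjusted p = 0.0213). Tarsl2 read 10.2, 9.69 and 10.8 CPM in the day 13 controls and 14.1, 17.4 and 12.6 with siRNA, so it was higher where Tars was lower. The Tarsl2 call did not hold when control replicate 1, control replicate 2 or siRNA replicate 2 of day 13 was removed (edgeR adjusted p up to 0.106 over the alternatives).

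**Figure D4:**
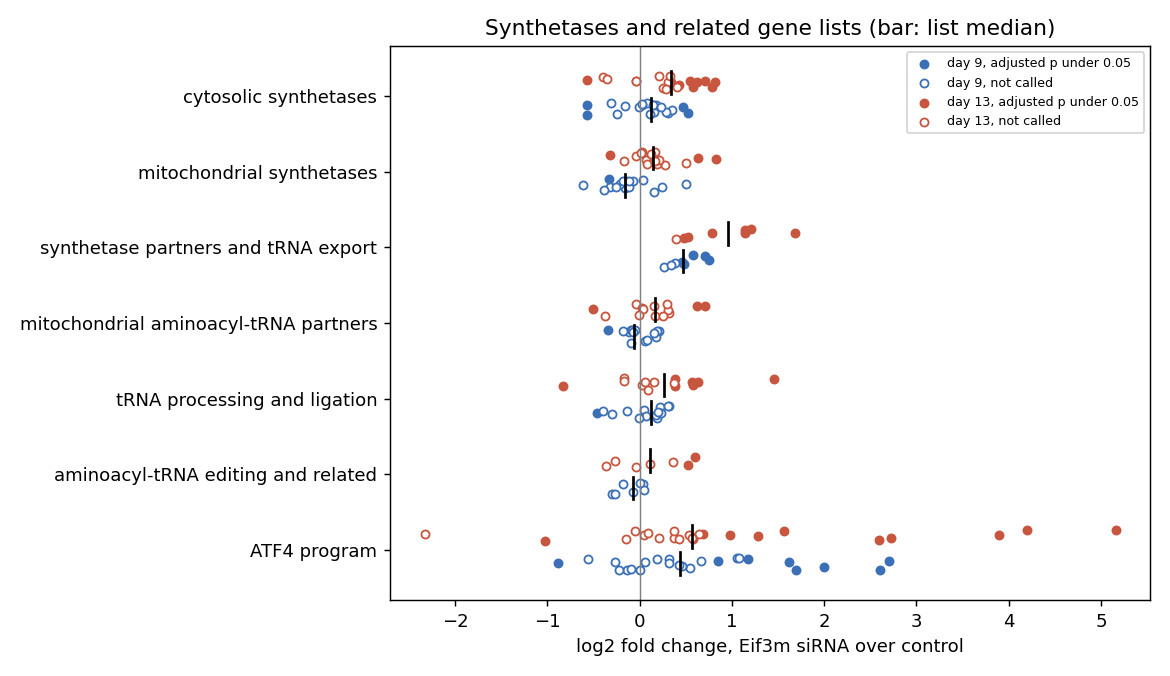
Log2 fold change of Eif3m siRNA over control (x axis) for each gene of 7 lists, at day 9 (blue) and day 13 (red), filled where edgeR's adjusted p was under 0.05, with a black bar at the list's median. The list of synthetase partners and tRNA export has medians of 0.47 and 0.96, against 0.13 and 0.34 for the cytosolic synthetases.

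The ATF4 program was listed apart from the synthetases, with 24 of its 26 genes tested. At day 9, 7 were called higher and 1 lower, and at day 13, 10 higher and 1 lower (medians 0.44 and 0.57), against 5.94% and 6.84% of all genes at day 9 and 12.8% and 10.9% at day 13. Ddit3, which encodes the stress-response factor CHOP, was at 5.71, 5.21 and 4.27 CPM in the day 9 controls and 22.9, 38.1 and 31.5 with siRNA. The day 13 libraries held 5.92, 5.84 and 2.82 CPM against 94.5, 75.8 and 93.4. The groups were far apart, with log2 fold changes of 2.60 (SE 0.226, edgeR adjusted p = 3.9e-05) and 4.20 (SE 0.265, edgeR adjusted p = 1.23e-06). Gdf15, a secreted stress hormone, read 2.01, 1.87 and 2.46 CPM in the day 9 controls and 4.93, 7.08 and 7.47 with siRNA, and 1.88, 0.997 and 0.758 against 18.0, 19.0 and 16.2 at day 13. Its groups were apart at both days, with log2 fold changes of 1.62 (SE 0.203, edgeR adjusted p = 0.000352) and 3.90 (SE 0.281, edgeR adjusted p = 2.33e-06). Trib3, a pseudokinase induced in this response, rose by 1.69 and 5.16 (edgeR adjusted p = 0.0014 and 2.69e-06). The genes that follow were named after their values were seen. Atf5, a related transcription factor, rose by 1.99 and 2.73 (edgeR adjusted p = 7.67e-05 and 2.69e-06). Shmt2, the mitochondrial serine hydroxymethyltransferase, was the gene called lower at both days, at -0.88 and -1.02 (edgeR adjusted p = 0.000564 and 6.41e-05), and 2 genes were called lower at day 13 without day 9 siRNA replicate 1 or day 13 control replicate 3. Asns, the asparagine synthetase enzyme that makes free asparagine, was called at neither day, at 1.05 and 0.64 (edgeR adjusted p = 0.0774 and 0.318), nor were Psat1 (0.66 and 0.38) and Mthfd2 (1.08 and 0.10), and Chac1 had -2.33 at day 13 (edgeR adjusted p = 0.0804) from siRNA counts of 0, 5 and 3. Atf4 itself was called at neither day, at -0.26 and 0.04 (edgeR adjusted p = 0.283 and 0.872).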

How the data were processed

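Estimated counts for each Ensembl gene in 12 liver libraries were deposited by the authors as 1 table. STAR 2.5.3a, RSEM 1.3.0 and the build mm10 are named per the submitters' processing notes. What each tool did, the annotation, strandedness and filters were not given in the sources used here. These deposited expected counts were whole numbers and were used as they stood. Per the labels' protocols, RNA was purified with an RNeasy kit and mRNA captured with a KAPA kit. Symbols and positions came from GENCODE release M21 (GRCm38) for 50462 identifiers. Another 224 identifiers, with 0.0199% of the counts, had none. Promoter windows came from RefSeq (GRCm38.p6).

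Genes were kept with filterByExpr in edgeR 4.0.16 at a minimum count of 10, and libraries were scaled by TMM. The test was edgeR's robust quasi-likelihood test, two-sided, on 4 groups with 8 residual degrees of freedom, adjusted by Benjamini-Hochberg over 14248 genes and called at 0.05. The steps were tested on simulated data. Replicate libraries differed by more than sampling noise in every pair. Shared sequence was searched with blastn 2.17.0 at 95% identity over 100 bases or more.

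The members and lists were chosen with earlier results of these data known, and no list was tested as a set. Per-library values were given for the 8 called cytosolic members with the smallest p at each day, the called mitochondrial members, members called between the days, the 3 highest levels per length, and partly for the mitochondrial counterparts. Up to 3 called genes with the smallest p at either day were named from each other pathway list, and names added later are given as such. Alternatives were DESeq2 1.42.0 and its size factors, upper-quartile scaling, no filter, a mean of at least 5 CPM, limma-voom (limma 3.58.1), day 9 thinned to day 13 depth, each day alone, the replicate number as a block, and leaving out each library. R 4.3.3 and Python 3.11.15 were used.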

Additional observations from a re-analysis of the deposited data

Results flagged for a closer look

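The siRNA effect on Farsb differed between the days by 0.74 on the log2 scale, larger at day 13, by edgeR's test of the difference itself (adjusted p = 0.037). That call was lost in 11 of 21 alternatives, with day 9 thinned to day 13 depth among them. Day cannot be told apart from depth or set of libraries. The log2 change of the Sars to Sars2 ratio was lower at day 13 than at day 9 by −0.72. Every siRNA library had a higher ratio than the controls at day 9 and a lower one at day 13, and this difference was not tested. The pair was named for this pattern, and Sars2 had only 51, 51 and 50 counts in the day 13 controls.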

How the results depend on the processing

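No synthetase that was called, and no called gene of the 5 other lists, turned its direction under an alternative. Of 20 cytosolic genes 2 were called higher at day 9, and 4 with DESeq2 and with each day alone. There were 3 without day 13 control replicate 3 and siRNA replicate 2, an alternative chosen after seeing the data. There were 3 where genes had to average 5 CPM, 1 with the replicate block and 0 to 2 with a library left out. The 2 called lower became 1 with the block, 3 with each day alone and without those 2 libraries, and 1 to 2 with a library left out. For mitochondrial genes 0 were called higher at day 9, and 1 (Mars2) with limma-voom, with each day alone and without those 2 libraries. The 1 called lower became 0 without a filter, with the block and with day 9 thinned, 2 with DESeq2, with each day alone and without those 2 libraries, and 0 to 1 with a library left out.

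At day 13 the 9 cytosolic genes called higher were 7 to 11 with a library left out, and the 2 mitochondrial genes were 2 throughout. The 1 cytosolic gene called lower became 2 (with Mars) without those 2 day 13 libraries together, and 1 to 2 with a library left out. The 1 mitochondrial gene called lower became 0 without a filter, with the block and with each day alone, and 0 to 1 with a library left out. For the difference between the days, 1 cytosolic gene became 2 with DESeq2 and without the 2 libraries, 0 with the block and with day 9 thinned, and 0 to 1 with a library left out, while 0 mitochondrial genes became 1 with DESeq2 and 0 to 1 with a library left out. Apart from the reduced sets of libraries and counts, the cause was not tested.

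The median log2 fold change of the cytosolic genes was 0.07 to 0.13 at day 9 and 0.27 to 0.43 at day 13 with a library left out. That of the mitochondrial genes at day 13 was 0.08 to 0.20 with a library left out, 0.07 without the 2 libraries, 0.10 with upper-quartile scaling and 0.08 at a mean of at least 5 CPM.

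Over all genes, 846 were called higher at day 9, and 1303 with limma-voom, 542 with the block, 532 thinned, 1687 with day 9 alone, 1422 without the 2 libraries and 413 to 1075 with a library left out. The 975 called lower became 1725 with day 9 alone, 1628 without the 2 libraries and 471 to 1190 with a library left out. At day 13 the 1824 called higher became 1060 with the day alone and 1207 at the lowest with a library left out, and the 1553 called lower became 954 with the day alone. Deviations of same-numbered libraries from their group means had correlations of -0.16 to 0.16, and those of different-numbered ones -0.14 to 0.23. With 3 libraries to a group this cannot exclude a pairing by replicate number, and the main test assumed none. At day 13 the calls of Aars, Dars, Eprs, Farsb, Sars, Tars, Vars, Wars, Sars2 and Tars2 held under all 21 alternatives.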
